A study of Mus musculus with 6 samples.

Results

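The genes described here are 34 mouse genes of the unfolded protein response and the integrated stress response, out of 24411 genes in the deposited count tables. They were chosen by symbol and by known function: endoplasmic reticulum (ER) chaperones, the sensors and transcription factors of the response, ER-associated degradation, and targets of Atf4. The choice was made with earlier results of these data known. All 34 symbols were found.

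The cells were microglia, the macrophages that live in the brain, in primary mouse culture, and the measurement was strand-specific RNA-seq of RNA depleted of ribosomal RNA. One group of 3 libraries came from cells given FTY720 (fingolimod) at 1 µM plus the endotoxin lipopolysaccharide (LPS), which Toll-like receptor 4 senses, at 10 ng/ml for 4 h. The other group of 3 libraries came from cells given FTY720 at 1 µM for 4 h without LPS. All 6 libraries therefore carried FTY720, and the comparison shows what differed with LPS in its presence; cells without FTY720 were not analysed here. Per the labels, the cells were shaken off mixed glial cultures of ICR mouse brains taken at 3 days of age. Brains of 12 mice were pooled, and over 92% of the cells were CD11b-positive. Replicates were independent RNA samples per the labels. Nothing says that they came from separate pools of mice or separate cultures, so p-values measure the spread between these samples, which may be technical.

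Secreted and membrane proteins fold in the ER with the help of chaperones and disulfide isomerases. When unfolded proteins build up there, the sensors IRE1 (the product of Ern1), PERK (the product of Eif2ak3) and ATF6 signal to the nucleus: IRE1 splices the Xbp1 messenger RNA, ATF6 is cut to release a transcription factor, and PERK phosphorylates the translation factor eIF2α, which slows translation in general while favouring that of Atf4. Other kinases phosphorylate the same factor, and the shared output is called the integrated stress response. In macrophages, Toll-like receptor ligands are known to engage parts of this system while secretory proteins such as cytokines are made.

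Gene reads numbered 2431775 to 3454647 per library, and 10156 to 20228 of them fell on the 34 genes. Rn45s, Lars2 and Mir6236, which collect reads of ribosomal RNA, held 28.8% to 59.0% of the gene reads, with the lowest share in FTY720 replicate 3. That library also stood apart from the other FTY720 libraries (chi-square per degree of freedom 3.50 and 4.39, against 1.31 between FTY720 replicates 1 and 2). Where a gene's call changes without it, that is given with the gene. Tnf, an early LPS target, averaged 2308 ± 93.3 CPM (a gene's reads per 1000000 gene reads, with the library size scaled by edgeR's TMM factors) in FTY720 plus LPS libraries and 27.1 ± 9.05 CPM in FTY720 libraries (SD, n = 3 each). Of 13 microglial markers, 11 were tested and 10 were higher with LPS, with summed levels of 3824 to 4380 CPM in FTY720 plus LPS libraries against 2468 to 2654 CPM in FTY720 libraries; Tmem119 and Sall1 were too low to test. Markers of oligodendrocyte lineage cells summed to 142 to 163 CPM with LPS against 268 to 293 CPM over 8 genes, with 5 of 6 tested lower. Neuronal markers summed to 97.6 to 110 CPM against 180 to 241 CPM over 6 genes, with 3 of 3 tested lower. For astrocytes 97.7 to 137 CPM stood against 83.8 to 104 CPM over 7 genes (2 higher and 1 lower of 6 tested). For fibroblasts or mural cells the sums were 18.2 to 29.5 against 17.2 to 23.4 CPM over 6 genes (none called of 3 tested, Rgs5 at 0 in all libraries), and for endothelial cells 12.3 to 16.5 against 5.01 to 9.01 CPM over 5 genes (1 higher of 1 tested). The part of these other cells in the results below was not tested, and in bulk RNA fewer cells of a type and less RNA per cell cannot be told apart.

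Of the 34 genes, 33 had enough reads to test, and 20 of them (60.6%) were higher in FTY720 plus LPS libraries at an edgeR adjusted p of 0.05, against 23.3% of all 10124 genes tested. None was lower, against 22.7% of all genes tested, and 13 were not called; over all genes tested, 46.0% were called in one direction or the other. Of the 33, 7 were both called and at least 2-fold higher, against 8.49% of all genes tested. The values of the 3 FTY720 plus LPS libraries did not overlap those of the 3 FTY720 libraries for 25 genes that were higher with LPS and 1 that was lower, of the 33 tested, against 54.0% of all genes tested. The median log2 fold change was 0.70 over the 33 genes and -0.04 over all genes tested. Because the genes were chosen with earlier results known, the shares above describe the set and do not test it for enrichment. Summed over all 34 genes, the level was 7822 ± 277 CPM in FTY720 plus LPS libraries and 3432 ± 35.9 CPM in FTY720 libraries (SD, n = 3 each).

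Abundant genes were more often called higher in this comparison, so the count was also set beside genes of similar level. Among all genes with a mean log2 CPM of 6 to 8, 49.6% were called higher and the median log2 fold change was 0.31; 17 stress-response genes lay in that range, 12 of them were called higher and their median was 0.78. At 8 and over, 85.5% of 269 genes were called higher, as were all 4 stress-response genes there (Hspa5, Calr, Atf4 and Pdia3), with medians of 0.73 over all genes and 1.03 over the 4. From 4 to 6, 3 of 9 stress-response genes were called higher against 22.5% of all genes, and under 4, 1 of 3 against 10.8%. In percentage points, the share of stress-response genes called higher thus stood closer to its surroundings within these bands than over all genes.

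**Figure D1:**
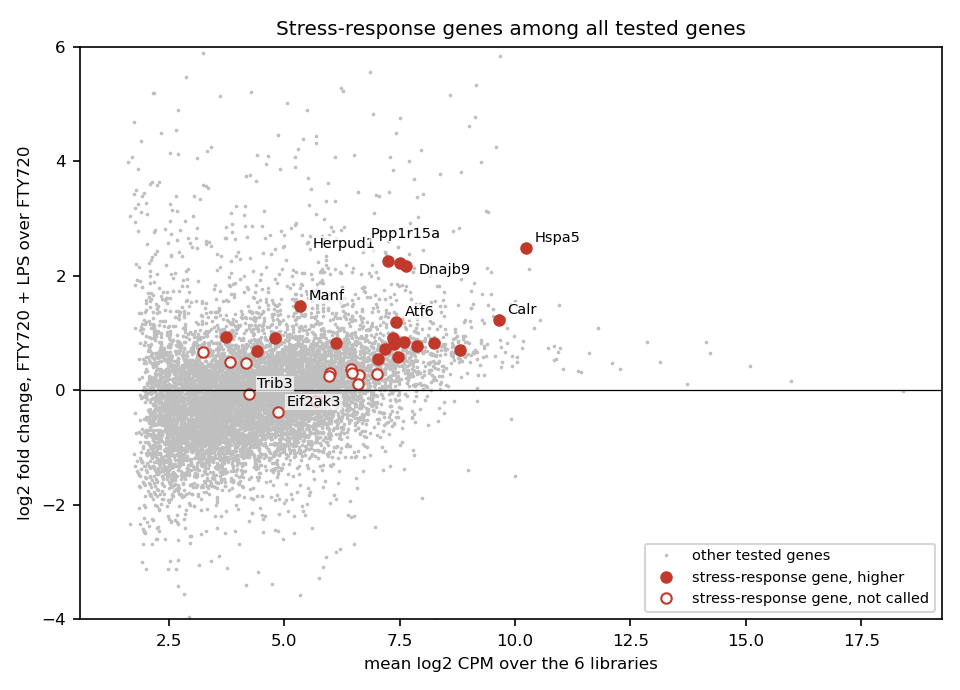
Log2 fold change (FTY720 plus LPS over FTY720, y axis) against mean log2 CPM over the 6 libraries (x axis) for the genes tested, with 30 genes outside the plotted range left out. Stress-response genes called higher are filled circles and those not called are open; Hspa5, Herpud1, Ppp1r15a and Dnajb9 lie above a log2 fold change of 2, and grey points drift upward toward high abundance.

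The size of these counts also depended on how the libraries were scaled. With TMM factors 50.7% of all calls were higher. That share was 38.8% with upper-quartile factors, 22.2% with total library size, and 18.0% with library size counted without the ribosomal-RNA-like genes. These 3 scalings moved the median log2 fold change of all genes by -0.13, -0.32 and -0.44. The number of stress-response genes called higher was 20 with TMM factors and 20, 7 and 15 with those 3 scalings. The number called lower was 0 with TMM factors and 1, 0 and 4 with the others. Of the housekeeping controls, Gapdh had a log2 fold change of 1.11 ± 0.11 and Actb of 0.53 ± 0.11, and Actb turned to -0.42 when the trend of fold change on abundance was removed. Under all 5 scalings tried, 30 of the 33 genes lay above the median of all genes and 3, Eif2ak3, Derl2 and Trib3, lay below it. A scaling moves all genes by nearly the same amount, so this position hardly changes by construction and does not test robustness. Relative to that median, the log2 fold change of Hspa5 was 2.51 to 2.52 over the 5 scalings. The position also takes no account of the trend on abundance. Hspa5, Herpud1, Ppp1r15a, Dnajb9, Manf, Calr and Atf6 were called higher under TMM scaling and under all 17 alternatives run. The other 13 lost their call with total library size. Hsp90b1, P4hb, Atf4, Pdia3 and Edem1 also lost it with the trend on abundance removed, and Hsp90b1, Edem1, Ppp1r15b, Syvn1 and Sesn2 with library size without ribosomal-RNA-like genes. That fit with the trend removed called Sdf2l1, Creld2 and Chac1 higher, and it gave Calr a log2 fold change of 0.42.

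**Figure D2:**
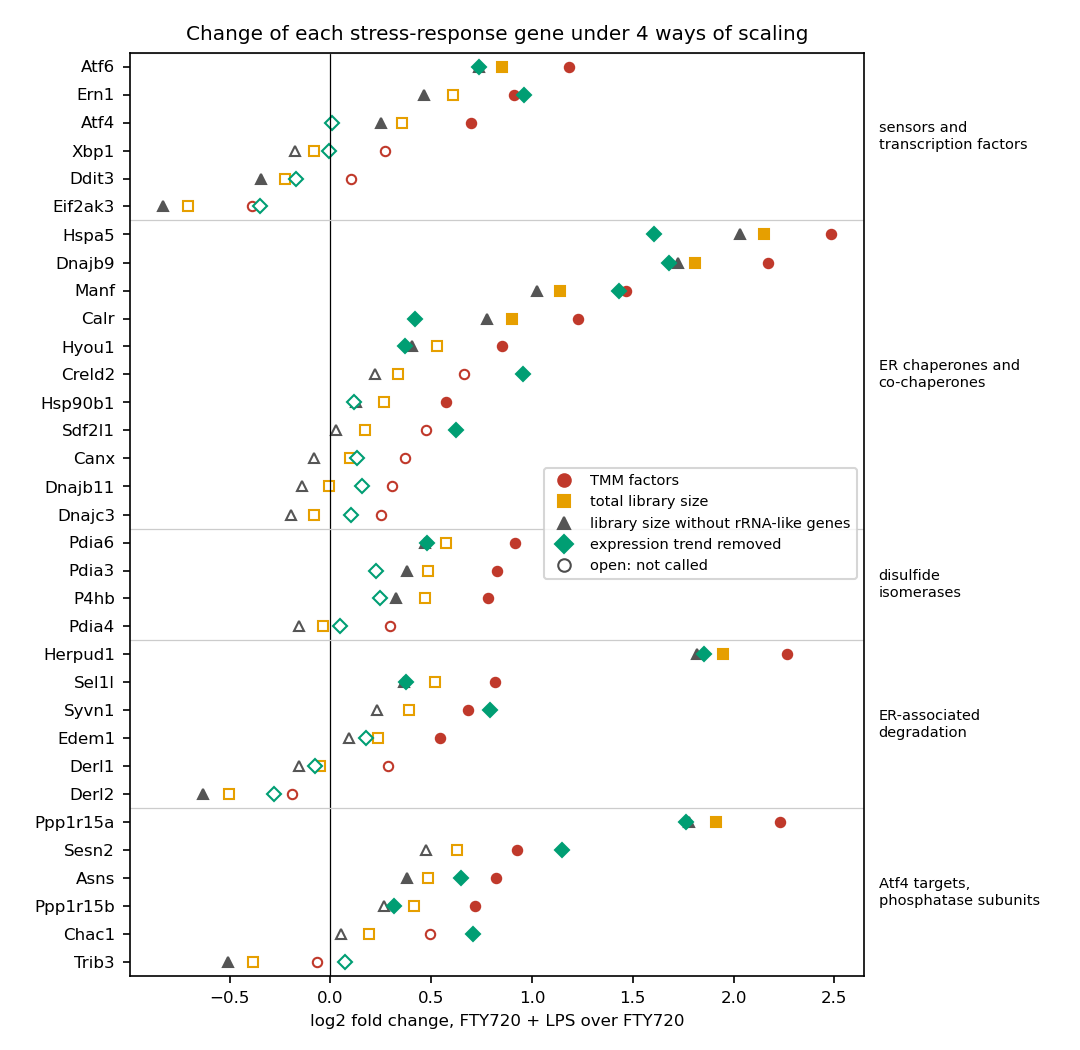
Log2 fold change (FTY720 plus LPS over FTY720, x axis) of each of the 33 tested genes with TMM factors, total library size, library size without ribosomal-RNA-like genes, and the expression trend removed, 1 row per gene; open symbols were not called. The Hspa5 value is 2.48 with TMM factors and 1.60 with the trend removed, while genes with small changes lie on either side of 0 depending on the scaling.

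Among the chaperones and co-chaperones, 6 of 11 were higher with LPS, against 23.3% of all genes tested. Of these, 4 were at least 2-fold higher, against 8.49% of all genes tested. Hspa5 and Calr lay at a mean log2 CPM of 8 and over, where 85.5% of all genes were called higher. Hyou1, Hsp90b1, Dnajb9 and Canx lay at 6 to 8, where 49.6% were. The remaining chaperones lay lower, where 22.5% (4 to 6) and 10.8% (under 4) were. The summed level of the 11 genes was 4304 ± 208 CPM in FTY720 plus LPS libraries against 1437 ± 5.57 CPM in FTY720 libraries (SD, n = 3 each). Hspa5 encodes BiP, the main Hsp70 chaperone of the ER lumen, which also binds the sensors and holds them inactive, and lies at chr2:34771970-34777547 on the plus strand (GRCm38, GENCODE M21, as for the other gene positions). Its level was 1908, 2041 and 2204 CPM in FTY720 plus LPS libraries, against 379.4, 359.6 and 363 CPM in FTY720 libraries. All 3 LPS libraries stood far above the others, and the log2 fold change was 2.48 ± 0.11 (SE), or 5.58-fold (edgeR adjusted p = 4.49e-15). Hspa5 held 25.3%, 26.1% and 27.2% of all reads on the 34 genes in FTY720 plus LPS libraries, against 11.0%, 10.6% and 10.5% in FTY720 libraries. The other 33 genes together still held more of the reads outside the ribosomal-RNA-like genes with LPS, 0.873%, 0.880% and 0.878%, against 0.647%, 0.640% and 0.621% without it.

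The promoter windows of the chaperone genes are shown because the ER stress response element (ERSE: CCAAT, 9 bases, CCACG), to which ATF6 and XBP1 are known to bind with the factor NF-Y, is the named element of this gene class. Windows of 300 bases, 250 before to 50 after the RefSeq gene start (RefSeq, GRCm38.p6), were held for 29 of the 34 genes; Atf6, Hyou1, Manf, Derl1 and Ppp1r15b had none. Both strands were searched. ERSE was found in the windows of 9 of the 29 genes, against 37 of 27025 genes with a window in the table (0.137%). Of the 7800 tested genes with a window, 0.154% held it. The matches are given 5′ to 3′ in the motif's orientation, with the fixed letters of the motif in capitals; Hsp90b1 holds 2.
Calr: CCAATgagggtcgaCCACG
Canx: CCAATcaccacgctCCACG
Creld2: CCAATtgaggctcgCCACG
Derl3: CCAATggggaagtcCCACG
Dnajc3: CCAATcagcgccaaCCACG
Hsp90b1: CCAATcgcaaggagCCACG
Hsp90b1: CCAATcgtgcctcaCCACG
Hspa5: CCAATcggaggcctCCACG
Pdia6: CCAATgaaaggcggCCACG
Syvn1: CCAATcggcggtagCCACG
Hspa5's match lies at chr2:34772025-34772043, beginning 65 bases before the RefSeq start. The GENCODE gene span given above begins at chr2:34771970, so the match lies inside that span. Distances of matches are all counted from the RefSeq start. The window of Hspa5, chr2:34771840-34772139 on the plus strand, is printed with the match in capitals.
Hspa5: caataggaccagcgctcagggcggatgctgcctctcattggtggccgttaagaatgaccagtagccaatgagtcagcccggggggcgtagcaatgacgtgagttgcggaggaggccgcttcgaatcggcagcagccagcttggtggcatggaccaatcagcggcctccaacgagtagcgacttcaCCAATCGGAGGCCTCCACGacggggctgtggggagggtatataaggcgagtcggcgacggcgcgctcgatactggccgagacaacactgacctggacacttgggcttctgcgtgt
Hsp90b1's matches lie 212 bases before its start and, on the opposite strand, 107 bases before it, in chr10:86705395-86705694 on the minus strand.
Hsp90b1: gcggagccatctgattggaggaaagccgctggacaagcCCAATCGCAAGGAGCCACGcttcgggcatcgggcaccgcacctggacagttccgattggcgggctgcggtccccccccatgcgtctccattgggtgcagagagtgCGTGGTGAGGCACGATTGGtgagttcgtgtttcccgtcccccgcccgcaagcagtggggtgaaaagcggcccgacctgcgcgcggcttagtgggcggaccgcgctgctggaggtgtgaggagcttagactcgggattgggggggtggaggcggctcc
A match describes letters and not binding. Of the 16 genes with a window that were called higher, 5 held ERSE (Calr, Hsp90b1, Hspa5, Pdia6 and Syvn1), and of the 5 that were at least 2-fold higher, 2 did (Hspa5 and Calr). Canx, Creld2 and Dnajc3 held ERSE and were not called, and Derl3 was too low to test.

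Dnajb9, which encodes the BiP co-chaperone ERdj4 (chr12:44205559-44210326, minus strand), was at 289.1, 328.7 and 378.5 CPM in FTY720 plus LPS libraries, against 73.75, 59.76 and 85.93 CPM in FTY720 libraries. The groups were far apart, with a log2 fold change of 2.17 ± 0.14 (SE), or 4.51-fold (edgeR adjusted p = 5.42e-12). Calr encodes calreticulin, a calcium-binding lectin chaperone. It was at 1107, 1143 and 1153 CPM against 476.6, 478.4 and 497.7 CPM without LPS, a log2 fold change of 1.23 ± 0.10 (edgeR adjusted p = 5.48e-10). Manf, a secreted ER stress factor, was at 63.41, 64.31 and 55.07 CPM against 22.03, 20.36 and 23.54 CPM without LPS, and its log2 fold change was 1.47 ± 0.15 (edgeR adjusted p = 4.04e-08). In each of these genes the LPS libraries lay above all FTY720 libraries.

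Hyou1, a large ER chaperone of the Hsp70 family, was at 248.5 ± 1.18 CPM in FTY720 plus LPS libraries and 137.7 ± 4.89 CPM in FTY720 libraries (log2 fold change 0.85 ± 0.11, edgeR adjusted p = 7.32e-07). Hsp90b1, which encodes the ER form of Hsp90, was at 215.6, 208.2 and 205.8 CPM against 141.5, 150.9 and 131.4 CPM without LPS (0.57 ± 0.11, edgeR adjusted p = 0.000175). The groups did not overlap for either gene. Within each library, 8.85, 9.81 and 10.7 Hspa5 reads were counted per Hsp90b1 read with LPS, against 2.68, 2.38 and 2.76 without it, a ratio that no scaling of libraries can change; this pair and the 5 others given below were chosen after their values had been seen.

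The other 5 chaperone genes were not called. Canx, which encodes the membrane-bound relative of calreticulin, was at 105.6, 88.42 and 99.62 CPM in FTY720 plus LPS libraries and 79.76, 93.14 and 56.03 CPM in FTY720 libraries, and these overlapped. The 95% interval of its log2 fold change was 0.05 to 0.69 (edgeR adjusted p = 0.0509). For Dnajb11, a soluble BiP co-chaperone, the interval was 0.04 to 0.57 (edgeR adjusted p = 0.0584). For Creld2 it was 0.08 to 1.24 (edgeR adjusted p = 0.0581), and for Sdf2l1 0.05 to 0.90 (edgeR adjusted p = 0.0624). For Dnajc3, a co-chaperone that inhibits PERK, it was -0.05 to 0.55 (edgeR adjusted p = 0.166). All 5 estimates were above 0 with TMM factors. With library size without ribosomal-RNA-like genes they were below 0 for Canx (-0.08), Dnajb11 (-0.14) and Dnajc3 (-0.20), and with total library size for Dnajb11 (-0.01) and Dnajc3 (-0.08). Per Dnajc3 read, 5.04 ± 1.12 Dnajb9 reads were counted with LPS and 1.29 ± 0.190 without it (SD, n = 3 each). Single libraries decided several of these calls. Creld2 was called higher without FTY720 plus LPS replicate 1 (edgeR adjusted p = 0.0276) or FTY720 replicate 1 (0.0475). Dnajc3 was called without FTY720 plus LPS replicate 2 (0.0439). Without FTY720 replicate 2, Dnajb11 (0.0476) and Sdf2l1 (0.0321) were called. The log2 fold change of Canx was 0.56 without replicate 2 (edgeR adjusted p = 0.00282) and 0.18 without replicate 3 (0.168). Canx was just inside the threshold with RLE size factors (0.0439), without a filter on low counts (0.0481) and with replicates 1 and 2 summed (0.0435), and Dnajb11 with RLE size factors (0.0480).

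**Figure D3:**
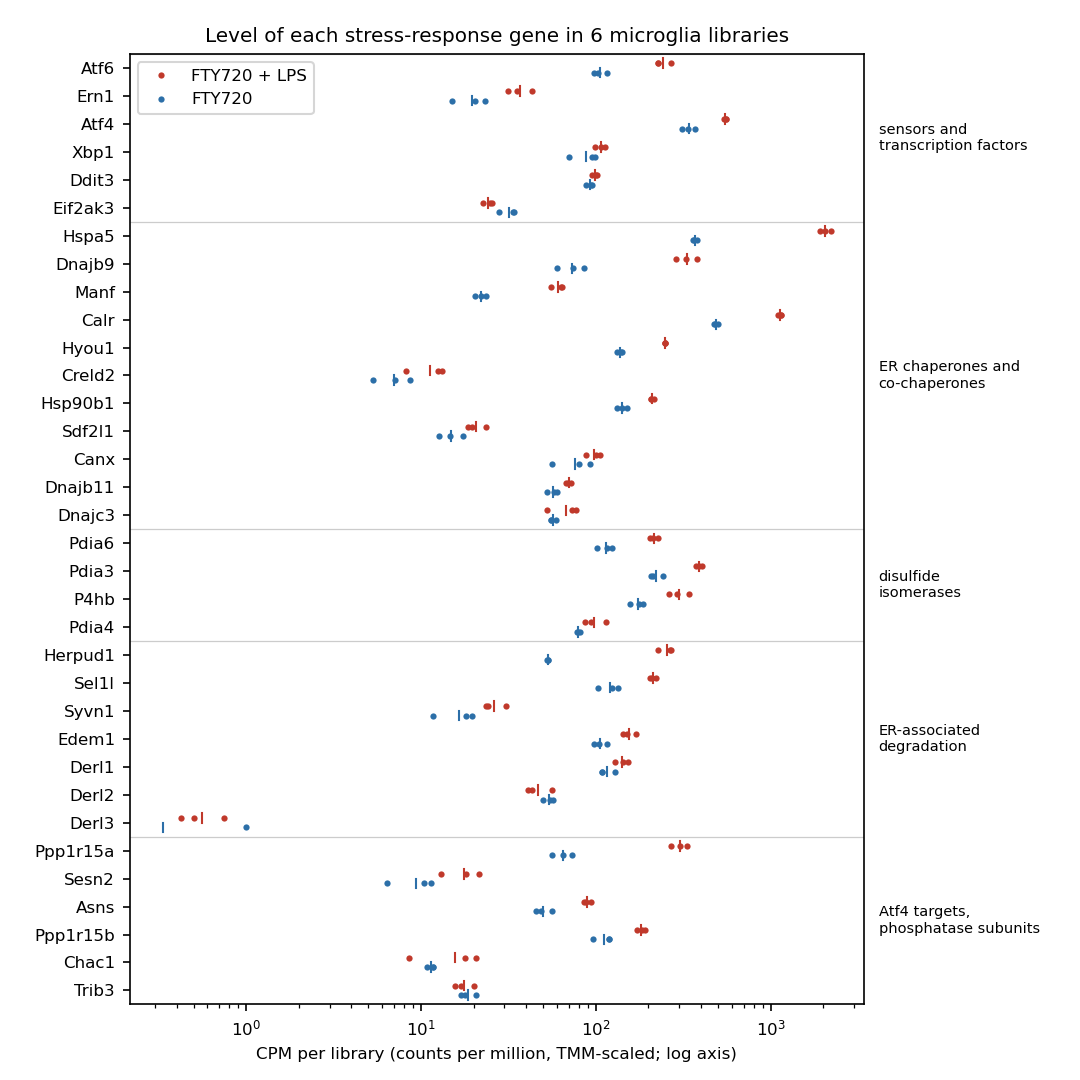
CPM in each library (log scale) for the 34 stress-response genes, FTY720 plus LPS and FTY720 libraries side by side; each point is 1 library and a vertical mark is the group mean. Values of 0, which Derl3 had in 2 FTY720 libraries, cannot be drawn on this axis. Hspa5 has the highest points of the FTY720 plus LPS libraries, from 1908 to 2204 CPM.

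Protein disulfide isomerases form and rearrange disulfide bonds in new proteins, and 3 of 4 were higher with LPS, against 23.3% of all genes tested. Their mean log2 CPM lay between 6.47 (Pdia4) and 8.25 (Pdia3). Of all genes at 6 to 8, 49.6% were called higher, and at 8 and over 85.5%. The summed level of the 4 isomerases was 1001 ± 56.4 CPM in FTY720 plus LPS libraries against 586.8 ± 14.7 CPM in FTY720 libraries (SD, n = 3 each). Pdia6 was at 227.2, 213.7 and 203.8 CPM against 116.5, 101.2 and 124.1 CPM without LPS (log2 fold change 0.91 ± 0.11, edgeR adjusted p = 8.41e-07). Pdia3, which works with the lectin chaperones, was at 376.3, 389.7 and 404.5 CPM with LPS against 211.2, 206.7 and 241.1 CPM without it (0.83 ± 0.11, edgeR adjusted p = 1.12e-06). P4hb, the classical disulfide isomerase, was at 263.3, 290.7 and 341.4 CPM against 177.5, 187.3 and 156.6 CPM (0.78 ± 0.12, edgeR adjusted p = 1.07e-05). None of the 3 had overlapping groups. Pdia4 was at 86.16, 93.92 and 113.6 CPM against 78.09, 79.12 and 81.22 CPM. Its groups did not overlap either, yet it was not called (0.29, 95% interval 0.03 to 0.56, edgeR adjusted p = 0.0648). It was called without FTY720 plus LPS replicate 1 (0.0318) or FTY720 replicate 3 (0.0237), and its estimate was below 0, and not called, with total library size (-0.04) and with library size without ribosomal-RNA-like genes (-0.15).

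Of the 6 sensors and transcription factors, 3 were higher with LPS (Atf6, Ern1 and Atf4), against 23.3% of all genes tested. Atf4 lay at a mean log2 CPM of 8 and over, where 85.5% of all genes were called higher. Atf6, Xbp1 and Ddit3 lay at 6 to 8, where 49.6% were, and Ern1 and Eif2ak3 at 4 to 6, where 22.5% were. The count of 3 was thus not clearly above that of genes of similar level. Xbp1, Ddit3 and Eif2ak3 were not called. Atf6 was at 226.8, 269.5 and 227.3 CPM in FTY720 plus LPS libraries and 103.5, 98.15 and 115.8 CPM in FTY720 libraries, a log2 fold change of 1.19 ± 0.12 (edgeR adjusted p = 1.88e-08). Ern1 was low, at 35.43, 31.31 and 43.05 CPM against 23.36, 20.36 and 15.07 CPM, and rose by 0.91 ± 0.19 on the log2 scale (edgeR adjusted p = 0.000463). Both genes kept their groups apart. The sensor Eif2ak3 was at 25.36, 24.96 and 22.53 CPM with LPS against 28.03, 33.38 and 33.9 CPM without it. Of the 33 genes it was the 1 whose LPS values all lay below the others. Its log2 fold change of -0.39 (95% interval -0.74 to -0.04) was not called under TMM scaling (edgeR adjusted p = 0.0647). It was called lower with upper-quartile factors (-0.52, 0.0137) and with library size without ribosomal-RNA-like genes (-0.83, 0.000295). Per library, 1.52 ± 0.345 Ern1 reads were counted per Eif2ak3 read with LPS and 0.629 ± 0.195 without it (SD, n = 3 each).

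Atf4, the transcription factor translated when eIF2α is phosphorylated, was at 540.1, 556.8 and 555.2 CPM with LPS against 338.4, 310.1 and 369.9 CPM without it, a log2 fold change of 0.70 ± 0.10 (edgeR adjusted p = 8.91e-06). That value was 0.01 with the trend on abundance removed, so the change of Atf4 lay on the trend of genes of its level. Ddit3, which encodes CHOP, a transcription factor of prolonged ER stress, was at 101.5, 100.3 and 95.12 CPM against 93.78, 88.14 and 94.88 CPM. Its log2 fold change of 0.10 (95% interval -0.14 to 0.34) was not called (edgeR adjusted p = 0.502), and with library size without ribosomal-RNA-like genes it was called lower (-0.35, 0.0118). Atf4 reads per Ddit3 read were 5.57 ± 0.257 with LPS and 3.68 ± 0.198 without it (SD, n = 3 each). Xbp1, the transcription factor made active by IRE1, was at 113, 99.42 and 107.6 CPM against 95.44, 70.44 and 98.88 CPM. It was not called (0.27, 95% interval -0.01 to 0.55, edgeR adjusted p = 0.105) but was called higher without FTY720 replicate 3 (0.37, 0.00799). The Xbp1 estimate was below 0, and not called, with total library size (-0.08) and with library size without ribosomal-RNA-like genes (-0.17). Gene counts do not separate spliced from unspliced Xbp1, so IRE1 activity could not be read from them.

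ER-associated degradation sends misfolded proteins out of the ER to the proteasome. Of 7 genes, 6 were tested and 4 were higher with LPS, against 23.3% of all genes tested. Herpud1, Sel1l, Edem1 and Derl1 lay at a mean log2 CPM of 6 to 8, where 49.6% of all genes were called higher. Syvn1 and Derl2 lay at 4 to 6, where 22.5% were. The summed level of the 7 was 834.3 ± 29.7 CPM with LPS and 465.4 ± 18.5 CPM without it (SD, n = 3 each). Herpud1, a membrane scaffold of the degradation complex (chr8:94386438-94395377, plus strand), was at 264.1, 269.5 and 228.3 CPM in FTY720 plus LPS libraries and 53.06, 52.75 and 52.97 CPM in FTY720 libraries. The log2 fold change was 2.26 ± 0.12, or 4.80-fold (edgeR adjusted p = 2.47e-13). Sel1l, the adaptor of the ubiquitin ligase, rose by 0.81 ± 0.12 on the log2 scale (edgeR adjusted p = 6.45e-06). Edem1, which binds trimmed glycoproteins, was at 154.7 ± 13.8 CPM with LPS and 106.1 ± 8.86 CPM without it (0.54 ± 0.12, edgeR adjusted p = 0.000692). Syvn1, the ubiquitin ligase HRD1, was at 23.5, 30.46 and 24.03 CPM against 19.69, 18.03 and 11.77 CPM (0.68 ± 0.21, edgeR adjusted p = 0.0113). Syvn1 overlaps Mrpl49, and 14.8% of the reads at Syvn1 lay on the opposite strand. Its call was lost without FTY720 plus LPS replicate 2 (0.57, 0.0775). Derlins are membrane proteins of the exit route. Derl1 (0.29, 95% interval 0.04 to 0.54, edgeR adjusted p = 0.0545) and Derl2 (-0.19, -0.50 to 0.12, 0.311) were not called. Derl1 was called without FTY720 replicate 3 (0.00148) or FTY720 plus LPS replicate 3 (0.0287), and with RLE size factors (0.0444). Its estimate was below 0, and not called, with total library size (-0.05) and with library size without ribosomal-RNA-like genes (-0.16). Under that last scaling Derl2 was called lower (-0.63, edgeR adjusted p = 0.00121). Derl3 had 2, 1 and 1 reads with LPS against 0, 3 and 0 reads without it, too few to test or to give a fold. Per Derl2 read, 5.50 ± 0.780 Herpud1 reads were counted with LPS and 0.989 ± 0.0708 without it (SD, n = 3 each).

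Herpud1 is also printed because its window holds a match to ERSE-II, a shorter form (ATTGG, 1 base, CCACG), and one to the C/EBP-ATF response element (CARE: TGATG, 1 base, AA), which ATF4 is known to bind. ERSE-II was found in 2 of the 29 windows, in 0.0444% of all genes with a window and in 0.103% of the tested genes with one. CARE was found in 4 of the 29, in 4.51% of all and in 2.68% of the tested genes. The ERSE-II matches were these, in the orientation of the motif.
Dnajb11: ATTGGcCCACG
Herpud1: ATTGGgCCACG
The CARE matches were these.
Asns: TGATGaAA
Chac1: TGATGcAA
Herpud1: TGATGcAA
Trib3: TGATGtAA
The window of Herpud1, chr8:94386179-94386478 on the plus strand, has its ERSE-II match 52 bases and its CARE match 112 bases before the start, the CARE match on the opposite strand.
Herpud1: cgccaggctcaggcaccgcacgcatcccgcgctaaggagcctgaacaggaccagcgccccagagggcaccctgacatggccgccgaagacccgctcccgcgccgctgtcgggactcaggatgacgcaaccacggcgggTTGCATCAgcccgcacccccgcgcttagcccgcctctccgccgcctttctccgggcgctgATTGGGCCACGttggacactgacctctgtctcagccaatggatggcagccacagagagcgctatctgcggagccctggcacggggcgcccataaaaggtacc
CARE matches were also in the windows of Asns, which rose, and Chac1 and Trib3, which were not called. The unfolded protein response element (TGACGTGG) was in none of the 29 windows, against 0.714% of all genes with a window and 1.12% of the tested ones.

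Targets of Atf4 and the phosphatase subunits that reverse eIF2α phosphorylation were led by Ppp1r15a, which encodes GADD34, the inducible subunit (chr7:45522916-45526268, minus strand). It was at 269.7, 302.5 and 333.9 CPM with LPS against 73.08, 65.1 and 55.8 CPM without it, and its log2 fold change was 2.23 ± 0.13, or 4.69-fold (edgeR adjusted p = 1.05e-12). Ppp1r15b, the constitutive subunit, was at 182.4 ± 9.57 CPM with LPS and 111.3 ± 13.0 CPM without it (0.72 ± 0.12, edgeR adjusted p = 3.41e-05). Per library 1.66 ± 0.157 Ppp1r15a reads were counted per Ppp1r15b read with LPS and 0.581 ± 0.0354 without it (SD, n = 3 each). The merged exons of Ppp1r15a span 2937 bases and those of Ppp1r15b 5594 bases. Per kilobase, Ppp1r15a was at 103 ± 10.9 CPM with LPS and 22.0 ± 2.95 CPM without it, and Ppp1r15b at 32.6 ± 1.71 CPM with LPS and 19.9 ± 2.33 CPM without it, so without LPS their levels did not differ beyond their spread. The window of Ppp1r15a holds a cyclic AMP response element (CRE: TGACGTCA), 12 bases before the start. This element was in 1 of the 29 windows, against 2.03% of all genes with a window and 3.81% of the tested genes with one. The window of Dnajb9, which also rose above a log2 fold change of 2, held none of the 5 motifs searched. The window of Ppp1r15a is printed from chr7:45526219-45526518, minus strand.
Ppp1r15a: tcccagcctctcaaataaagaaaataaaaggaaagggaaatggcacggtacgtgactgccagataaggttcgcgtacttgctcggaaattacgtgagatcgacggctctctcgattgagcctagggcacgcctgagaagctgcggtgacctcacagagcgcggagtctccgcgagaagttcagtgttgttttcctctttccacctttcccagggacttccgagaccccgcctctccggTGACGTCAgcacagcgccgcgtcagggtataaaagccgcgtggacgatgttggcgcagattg
Asns, asparagine synthetase, was at 93.62, 88 and 85.11 CPM against 48.39, 45.74 and 56.27 CPM without LPS (log2 fold change 0.82 ± 0.13, edgeR adjusted p = 2.38e-05). Sesn2, a stress-induced regulator of growth signalling, was low, at 13.05, 18.19 and 21.53 CPM against 11.35, 10.35 and 6.356 CPM (0.92 ± 0.26, edgeR adjusted p = 0.00576). Trib3, a pseudokinase induced by CHOP and Atf4, was at 20.14, 15.65 and 17.02 CPM against 20.69, 17.03 and 17.89 CPM, with overlapping groups (-0.06, 95% interval -0.48 to 0.35, edgeR adjusted p = 0.815). With library size without ribosomal-RNA-like genes Trib3 was called lower (-0.51, edgeR adjusted p = 0.0358). Chac1, which breaks down glutathione, was at 17.9, 20.73 and 8.511 CPM against 11.68, 11.68 and 10.83 CPM and was not called (0.49, 95% interval -0.04 to 1.03, edgeR adjusted p = 0.122). Without FTY720 plus LPS replicate 3, its lowest LPS library, it was called (0.0119).

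**Figure D4:**
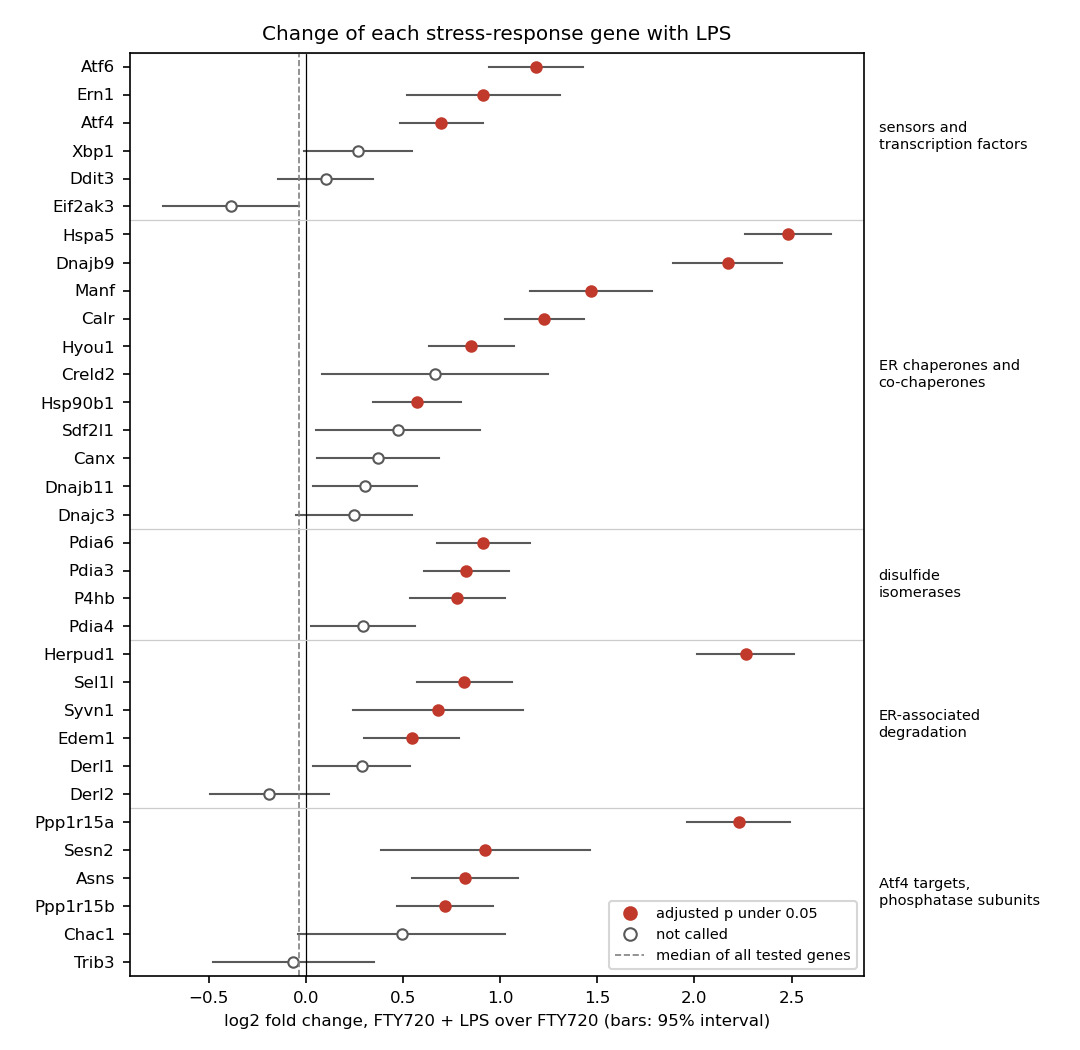
Log2 fold change (FTY720 plus LPS over FTY720) of each tested stress-response gene with its 95% interval, grouped by role; filled points passed the edgeR test and open ones did not, and the dashed line is the median of all tested genes. Hspa5, Dnajb9, Herpud1 and Ppp1r15a lie above 2, and Eif2ak3 is the lowest at -0.39.

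**Figure D5:**
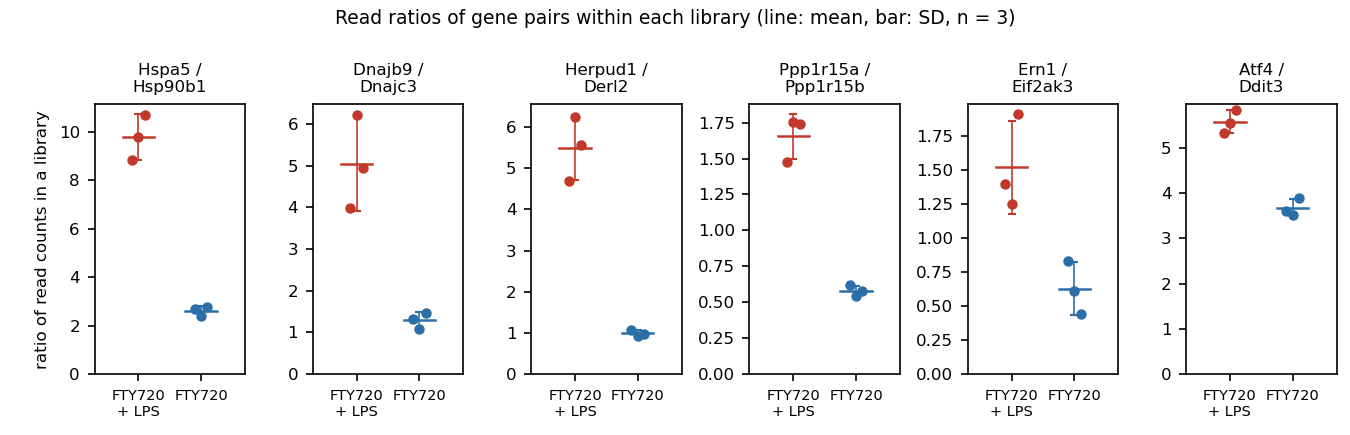
Ratio of reads of 2 genes within each library, for 6 pairs of related genes, FTY720 plus LPS and FTY720 libraries side by side; each point is 1 library, the line is the mean, the bar is the SD (n = 3), and the pairs were chosen after the values had been seen. The 2 groups do not overlap in any pair drawn.

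The order of levels per kilobase of merged exon also differed between the groups. In FTY720 plus LPS libraries Hspa5 led with 485 ± 35.1 CPM per kilobase, followed by Calr (394 ± 8.53), Atf4 (234 ± 3.90), Dnajb9 (130 ± 17.6) and Pdia3 (124 ± 4.49), where Dnajb9 and Pdia3 did not differ beyond their spread. In FTY720 libraries Calr led with 168 ± 4.06 CPM per kilobase, ahead of Atf4 (144 ± 12.7), Hspa5 (86.9 ± 2.51) and Pdia3 (70.0 ± 5.95). Among the 34 genes Dnajb9 ranked 4 with LPS and 11 without it, Herpud1 ranked 6 and 13, and Ppp1r15a 8 and 14.

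Of 129 other genes of the same pathways in 8 lists, 116 were tested, 45 were higher and 8 lower with LPS, and the median of their log2 fold changes was 0.27. Over all genes tested 23.3% were higher and 22.7% lower. The share called higher rose with abundance, from 10.8% under a mean log2 CPM of 4 to 85.5% at 8 and over. The lists were not set beside genes of similar level, so their counts do not show an excess over such genes. The lists, too, were chosen with earlier results of these data known. With total library size 9 of these genes were called higher, and with library size without ribosomal-RNA-like genes 19 were called higher and 37 lower. Further Atf4 targets were 10 higher and 2 lower of 20 tested, with a median of 0.42. Slc7a5, a transporter of large amino acids, was at 70.7 ± 8.50 CPM with LPS and 23.3 ± 5.14 CPM without it (log2 fold change 1.62 ± 0.17, edgeR adjusted p = 4.44e-08). Slc7a11, the cystine transporter, was at 361.9 ± 23.6 against 146.3 ± 10.5 CPM (1.30 ± 0.11, 1.06e-09). Cth, an enzyme of cysteine synthesis, was at 18.4 ± 3.61 against 1.54 ± 1.28 CPM (3.59 ± 0.37, 3.73e-08). Cth rests on 9, 2 and 4 reads in the FTY720 libraries.

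The kinases of eIF2 and the subunits of eIF2 and eIF2B counted 4 higher and 0 lower of 11 tested (median 0.22). Eif2ak2, the RNA-sensing kinase PKR, was at 20.6 ± 1.39 CPM with LPS against 7.18 ± 2.29 CPM without it (1.55 ± 0.24, edgeR adjusted p = 1.85e-05). The eIF2 subunit gene Eif2s2 had a log2 fold change of 0.80 ± 0.14 (7.99e-05) and Eif2s3x one of 0.77 ± 0.14 (0.0001). Other folding and oxidation genes of the ER were 7 higher and 1 lower of 15 (median 0.25). Ero1l, the oxidase that recharges disulfide isomerases, was at 77.6 ± 5.13 CPM against 24.4 ± 6.74 CPM (1.65 ± 0.17, edgeR adjusted p = 3.08e-08). Txndc11 had a log2 fold change of 1.27 ± 0.15 (3.74e-07) and Ero1lb one of 0.97 ± 0.16 (4.69e-05).

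Remaining genes of ER-associated degradation were 6 higher and 2 lower of 18 tested (median 0.08). Vcp, the ATPase that extracts proteins from the membrane, rose by 0.55 ± 0.11 on the log2 scale (edgeR adjusted p = 0.000212) and its cofactor Nploc4 by 0.52 ± 0.13 (0.00178). Edem2, a mannosidase-like protein, was at 41.5 ± 2.57 CPM with LPS against 61.5 ± 4.99 CPM without it (-0.56 ± 0.14, 0.00222). Translocon and signal peptidase genes were 8 higher and 0 lower of 22 (median 0.30). Log2 fold changes were 0.84 ± 0.17 for Sec61g (0.000426), 0.76 ± 0.13 for Ssr3 (3.98e-05) and 0.55 ± 0.15 for Ssr4 (0.00399). N-glycan transfer genes were 5 higher and 1 lower of 14 (median 0.32). Dad1 and Stt3b, subunits of the transferase, rose by 0.75 ± 0.15 (0.000272) and 0.55 ± 0.13 (0.00199). Uggt2, a glucosyltransferase-like protein, fell by 1.01 ± 0.41 on the log2 scale (0.0463) on 2 to 11 reads per FTY720 plus LPS library.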

How the data were processed

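The authors deposited raw read counts per gene and strand for 6 libraries, 3 with FTY720 plus LPS and 3 with FTY720. Per the submitters' processing notes the tools were STAR 2.5.1, Trimmomatic 0.33, CASAVA 1.8.2 and DESeq2, on build mm10; for the annotation nothing is given in the sources used here. Sense counts (98.4% to 98.9% of gene reads) were used. Rows that name no gene (74.5% to 79.2% of all reads listed) were left out. edgeR 4.0.16 in R 4.3.3 tested 10124 of 24411 genes (filterByExpr, minimum count 10) with TMM factors in its quasi-likelihood framework, and p-values were Benjamini-Hochberg adjusted over all of them, with a threshold of 0.05. CPM were scaled with TMM factors, an SE is the absolute log2 fold change over the square root of F, and intervals are 95%. A count of 0 allows 3 reads, or 0.706 to 1.50 CPM, for counting error only. Exon lengths and gene positions came from GENCODE M21 (GRCm38). DESeq2 1.42.0, other scalings, filters and left-out libraries were alternatives. The genes and lists were chosen with earlier results of these data known. All 34 genes are named; from each other list, up to 3 called genes with the largest change and a mean log2 CPM of at least 1. Where a list had none called, its 2 most abundant genes were to be named. Tnf, Gapdh and Actb are checks.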

Additional observations from a re-analysis of the deposited data

Results flagged for a closer look

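Reads on the strand opposite to Hspa5 and Calr were counted as data outside the sense counts used above. At Hspa5 they were more numerous with LPS, as were the sense reads. Hspa5 had 150 opposite-strand reads over the 3 FTY720 plus LPS libraries against 31 over the 3 FTY720 libraries, 1.05% and 0.825% of its sense reads. Calr had 68 such reads against 58, or 0.853% and 1.17% of its sense reads. By library these Calr reads were 23, 20 and 25 with LPS against 18, 15 and 25 without it, which overlapped. Over the 6 libraries, opposite-strand reads were 0.990% of the reads at Hspa5 and 0.964% of those at Calr. Over all genes, 98.4% to 98.9% of the reads of a library were sense. The opposite-strand share at these genes was thus no larger than over all genes.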

How the results depend on the processing

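Stress-response genes called higher numbered 20 to 23 without 1 library and 7 with total library size; 0 were called lower, except 1 with upper-quartile factors and 4 with library size without ribosomal-RNA-like genes (Eif2ak3, Derl2, Trib3 and Ddit3, the last reversed at -0.35). Of the other pathway genes, 45 were called higher, against 9 with total library size and 19 without ribosomal-RNA-like genes, and 8 were called lower, against 15 with upper-quartile factors, 37 without ribosomal-RNA-like genes, 4 with DESeq2, 5 with the length and GC correction, 5 with replicates 1 and 2 summed, and 4 (without FTY720 plus LPS replicate 3) to 12 (without FTY720 replicate 3), with 5 without FTY720 plus LPS replicate 1 or 2 or FTY720 replicate 1. With the abundance trend removed, Actb, a control gene, reversed to -0.42, Hspa5 was 1.60 and Calr 0.42, and 18 stress-response genes were called higher. Same-numbered libraries did not deviate together (correlations -0.022, -0.026 and -0.073), so the numbers were not taken as pairs; a fit with the replicate block called 21 stress-response genes higher (Canx added, adjusted p = 0.0499) and 5 other pathway genes lower. Of the calls of single stress-response genes, 24 were lost and 25 gained over the 17 alternatives. The lower call of Ddit3, whose estimate changed sign, was gained on top of these. The cause of these changes was not tested. Depth limits Derl3, with 0 to 3 reads per library, which is at the floor of 3 reads.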

Other observations

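Genes tied to ER stress signalling beyond the sensors and to cell death under ER stress were tested as 2 further lists. Of 8 transducers and related genes tested, 2 were higher with LPS and 1 was lower (median log2 fold change 0.08), against 23.3% higher and 22.7% lower of all genes tested. Neither of these lists was set beside genes of similar level. Tmbim6, an ER membrane protein that restrains IRE1, was at 790.4 ± 32.2 CPM in FTY720 plus LPS libraries and 445.4 ± 6.58 CPM in FTY720 libraries (0.83 ± 0.10, edgeR adjusted p = 3.93e-07), and Nfe2l1, a transcription factor of proteasome genes, at 141.2 ± 9.04 against 75.2 ± 14.8 CPM (0.92 ± 0.14, 9.76e-06). Mbtps1, the protease that makes the first cut in ATF6, was lower with LPS, at 49.9 ± 7.81 against 67.4 ± 7.89 CPM (-0.43 ± 0.15, 0.0198).

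Of 8 death genes tested, 3 were higher with LPS and 1 was lower (median 0.50). Bcl2l11, which encodes the death-promoting protein BIM, was at 248.9 ± 12.9 CPM in FTY720 plus LPS libraries and 46.8 ± 2.22 CPM in FTY720 libraries (2.41 ± 0.12, edgeR adjusted p = 7.08e-14). Pmaip1, which encodes NOXA, was at 37.5 ± 5.92 against 12.2 ± 1.38 CPM (1.60 ± 0.19, 3.68e-07), and Traf2, an adaptor that binds IRE1, at 36.7 ± 0.488 against 21.5 ± 2.20 CPM (0.78 ± 0.17, 0.000516).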
